A study of Mus musculus with 18 samples.

Results

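The 10 genes described here encode the inducible inhibitors that close the feedback loop on ERK, the last kinase of the Ras-Raf-MEK-ERK cascade: the dual-specificity phosphatases Dusp1, Dusp2, Dusp4, Dusp5 and Dusp6, the sprouties Spry1, Spry2 and Spry4, and the sprouty-related Spred1 and Spred2. They were chosen by name, as probes whose transcript accession maps to these RefSeq mouse symbols; each gene had 1 probe, and all 10 were among the 20813 genes tested. The samples were bone-marrow-derived macrophages from the femurs of male C57BL/6J mice aged 8 weeks, grown for 7 days in macrophage colony-stimulating factor (M-CSF), all 18 of them on 1-colour Agilent arrays. The mice were wild type or PHD3-/-, the deletion being of Egln3, an oxygen-dependent prolyl hydroxylase; the sources used here do not describe the construct of the allele. Each genotype had 3 groups of 3 samples: a control with the oxygen label 20 and control feeding, a low-oxygen group with the oxygen label 1 and control feeding, and a starved group with the oxygen label 20. The labels give no unit for oxygen, no duration, and do not say whether cells or mice were starved; the design text speaks of 3 mice each. Whether samples of the same number share a mouse is not given, and p-values measure the spread between these samples.

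ERK is switched on in macrophages by the M-CSF receptor and by inflammatory stimuli, and its activity drives transcription of its own inhibitors. The dual-specificity phosphatases strip phosphate from ERK and, for some members, from its relatives p38 and JNK. Sprouties and Spreds act further upstream and restrain the activation of Ras and Raf at the membrane. Several of these transcripts are short-lived and are commonly read as a trace of recent kinase signalling, although each also answers to other inputs.

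The stretches of 250 bases upstream of the annotated start are shown for 4 of the 8 members searched, Dusp1, Spry2, Dusp6 and Dusp2. They come from RefSeq, build GRCm38.p6, and read 5′ to 3′ on the gene's own strand. Capitals mark matches to ACGTG, a form of the core of the hypoxia response element, and to TGACGTCA, the cAMP response element. The other form of the core, GCGTG, was not searched or marked. Dusp1 (chr17:26508473-26508722, minus strand) and Spry2 (chr14:105896820-105897069, minus strand) were raised at low oxygen. Dusp6 (chr10:99262981-99263230, plus strand) was raised and Dusp2 (chr2:127335909-127336158, plus strand) lowered by starvation.
Dusp1: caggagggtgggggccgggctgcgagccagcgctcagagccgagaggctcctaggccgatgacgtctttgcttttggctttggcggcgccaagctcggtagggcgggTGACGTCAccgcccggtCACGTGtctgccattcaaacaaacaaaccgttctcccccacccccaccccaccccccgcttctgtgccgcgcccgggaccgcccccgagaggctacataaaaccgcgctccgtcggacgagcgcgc
Spry2: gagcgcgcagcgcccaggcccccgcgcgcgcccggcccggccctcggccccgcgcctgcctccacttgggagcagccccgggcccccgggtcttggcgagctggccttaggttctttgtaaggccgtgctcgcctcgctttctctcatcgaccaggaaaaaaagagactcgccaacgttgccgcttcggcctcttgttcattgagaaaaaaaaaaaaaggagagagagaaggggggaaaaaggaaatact
Dusp6: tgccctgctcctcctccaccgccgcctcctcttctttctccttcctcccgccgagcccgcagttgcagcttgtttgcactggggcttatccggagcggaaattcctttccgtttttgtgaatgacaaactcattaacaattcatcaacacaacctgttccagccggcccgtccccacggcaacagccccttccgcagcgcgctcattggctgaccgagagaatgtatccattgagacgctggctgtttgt
Dusp2: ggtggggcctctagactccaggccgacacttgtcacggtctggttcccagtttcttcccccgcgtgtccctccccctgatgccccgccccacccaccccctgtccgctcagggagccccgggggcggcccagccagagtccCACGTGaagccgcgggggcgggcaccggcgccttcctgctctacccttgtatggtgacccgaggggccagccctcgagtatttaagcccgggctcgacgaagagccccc
Of the 10 members, 8 were searched, and Dusp4 and Spry4 were not. A filter on chromosome was applied to the members and not to the full set of windows. ACGTG was searched on both strands and was found in 4 of the 8, Dusp1, Dusp2, Dusp5 and Spred1, against 16.6% of 32851 promoter windows of this length. In Dusp1 and Dusp2 it lies within the palindrome CACGTG, so both strands match at the same place. The full TGACGTCA, also a palindrome, was present in Dusp1 alone among the 8 and in 1.55% of all windows. Neither TGANTCA, the AP-1 site, nor TGATGCAA, an ATF4-type element, was found in the 8 windows on either strand; 6.75% and 0.791% of all windows hold them. These are letters in a window, and no binding was measured.

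Per array, 56.1% to 65.4% of the 43020 spots were well above background, no spot was saturated, and each sample correlated at 0.989 to 0.994 on average with its own group across genes. The 10 macrophage markers tested were well above background in all 18 samples, with a summed signal of 269 to 409 times the array's 75th percentile. Egln3 itself rose from -3.46 ± 0.34 to 2.90 ± 0.09 at low oxygen in wild type and from -3.95 ± 0.23 to 2.85 ± 0.14 in knockout (log2, SD, n = 3). Where its probe lies relative to the deleted part is unknown, so it does not check the genotype labels. Of the other macrophage markers, Cd163 was not above background, and Cd68 had no probe matched to its symbol. At low oxygen 12 of 14 hypoxia response genes rose and 1 fell in either genotype. Of 14 genes of the amino acid starvation response, 1 rose and 4 fell in starved wild type and 2 rose and 2 fell in starved knockout.

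In wild-type macrophages low oxygen raised Dusp1, Spry2, Dusp5 and Dusp6 and lowered Spry4; in knockouts it raised Dusp1, Spry2, Dusp5, Dusp6 and Spred2. Starvation raised Dusp4 and Dusp6 and lowered Dusp2 in both genotypes, and in the knockouts also raised Dusp1 and Spry2. These calls are at an adjusted p under 0.05 from limma with Benjamini-Hochberg adjustment over all 20813 genes. At low oxygen 5 of 10 members passed in each genotype, beside 38.6% of all genes in wild type and 39.7% in knockout. For starvation 3 of 10 passed in wild type and 5 of 10 in knockout, beside 12.5% and 13.5% of all genes. The low-oxygen counts are thus near the share of all genes. Leaving out 1 sample brought the wild-type low-oxygen count to 2 (without control 1) or 3 (without control 3), the knockout low-oxygen count to 3 (without control 3), and the starved knockout count to 3 (without control 2, control 3, starved sample 2 or starved sample 3). The median change of the 10 was 0.31 and 0.47 on the log2 scale at low oxygen and 0.08 and 0.36 in starvation, in wild type and knockout, where the median of all genes was 0.03, 0.03, 0.02 and 0.01. Each genotype's low-oxygen and starvation comparisons share their control samples. By direction, 20.5% of all genes rose and 18.1% fell at low oxygen in wild type, 21.4% and 18.3% in knockout, 6.49% and 6.02% in starved wild type, and 7.13% and 6.38% in starved knockout. The samples of the 2 groups did not overlap for 7 and 6 members at low oxygen, beside 49.9% and 49% of all genes, and for 3 and 7 members in starvation, beside 29.7% and 30.7%.

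**Figure D1:**
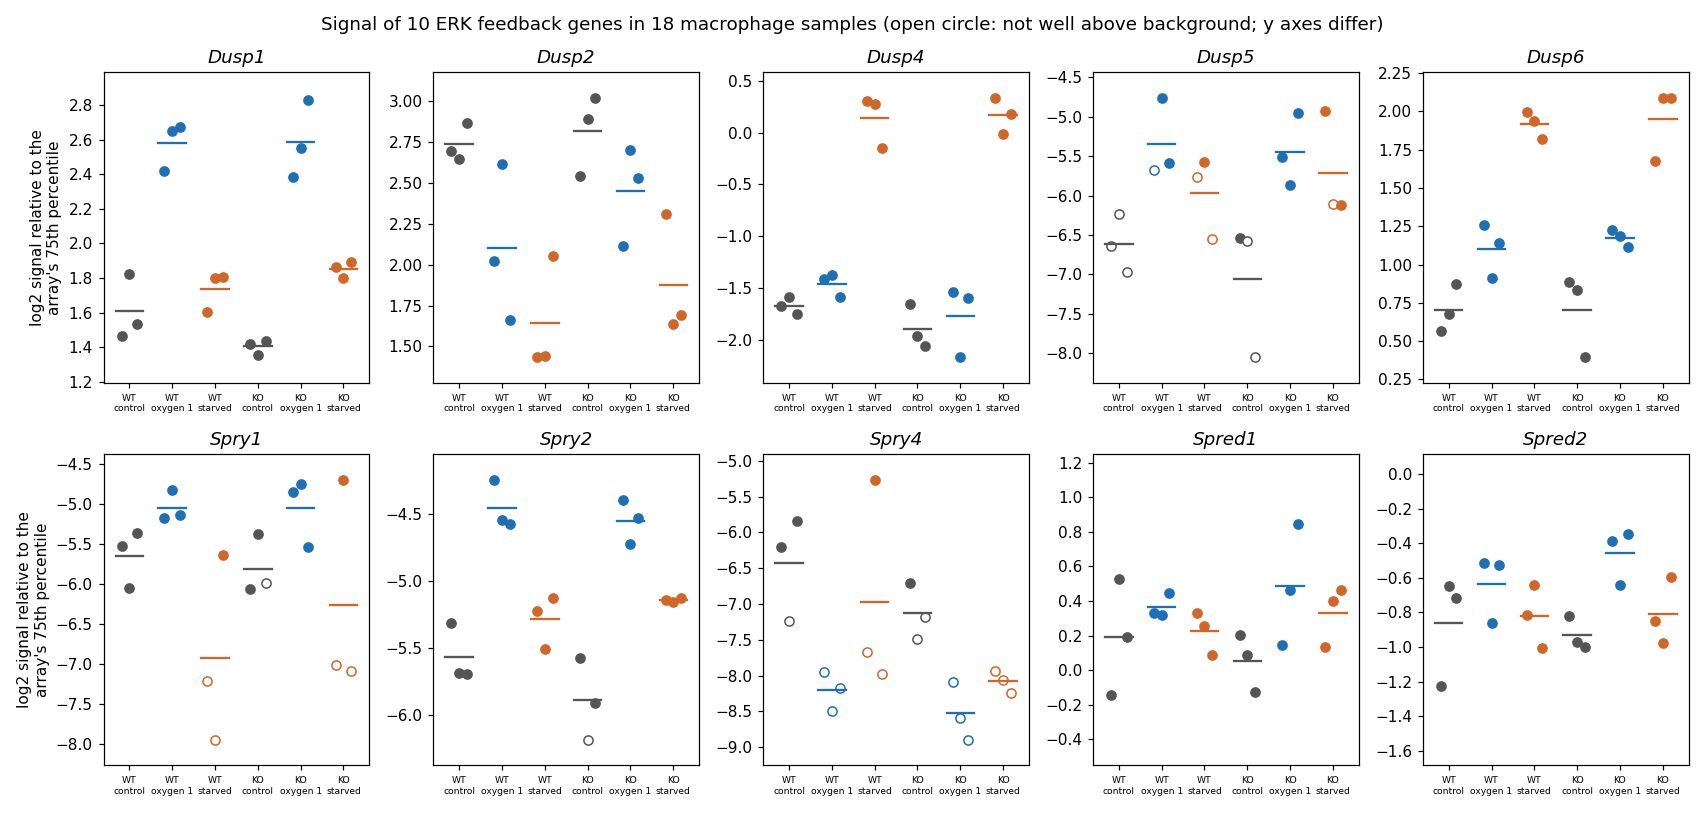
Log2 signal of each of the 10 genes relative to the array's 75th percentile (y axis, a separate range per gene) in the 3 samples of each of the 6 groups (x axis); bars are group means and open circles are samples not well above background. The low-oxygen samples of Dusp1 and Spry2, and the starved samples of Dusp4 and Dusp6, lie above the control samples of their genotype.

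Dusp1 encodes an early-response nuclear phosphatase that acts on p38 and JNK as well as ERK and limits cytokine production in macrophages. All values below are log2 signals relative to the array's 75th percentile; they compare samples for 1 gene and do not compare genes. In wild-type controls Dusp1 stood at 1.46, 1.83 and 1.53, and at low oxygen at 2.42, 2.65 and 2.67. In knockout controls it stood at 1.42, 1.36 and 1.44, and at low oxygen at 2.38, 2.55 and 2.83. Every low-oxygen sample was above every control and every starved sample of either genotype. The rise was 0.97 (SE 0.12), or 1.96-fold, in wild type and 1.18 (SE 0.12), or 2.27-fold, in knockout, with adjusted p of 2.13e-05 and 2.82e-06 (limma). In these bulk samples, more RNA per cell and a change in the mix of cells cannot be told apart.

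Starved Dusp1 values were 1.60, 1.80 and 1.81 in wild type and 1.87, 1.80 and 1.89 in knockout. The wild-type values overlapped their controls, with a difference of 0.13 and an adjusted p of 0.618 in limma. In knockouts the groups did not overlap and the rise of 0.45, 1.36-fold, passed with an adjusted p of 0.0253. That call was lost in 9 of 18 alternative analyses, among them each of the 6 that left out 1 knockout control or starved sample, where the adjusted p lay between 0.0502 and 0.0853.

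Dusp4 encodes a nuclear phosphatase for ERK, JNK and p38, itself induced by ERK. Its wild-type control values were -1.68, -1.58 and -1.75, its low-oxygen values -1.41, -1.37 and -1.59, and its starved values 0.31, 0.28 and -0.15. In knockouts the controls were at -1.65, -1.96 and -2.06, low oxygen at -1.53, -2.17 and -1.60, and starvation at 0.34, -0.01 and 0.17. The 6 starved samples formed a level of their own, above the other 12 samples with no overlap. Starvation raised Dusp4 by 1.82 (SE 0.17), 3.52-fold, in wild type and by 2.06, 4.16-fold, in knockout, the largest rise of the 10 genes in each starvation comparison (adjusted p 9.07e-06 and 2.21e-06, limma). Low oxygen changed it by 0.22 and 0.13, which did not pass (adjusted p 0.353 and 0.606).

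Dusp6 encodes the cytoplasmic phosphatase specific for ERK, a classical readout of ERK output. Wild-type controls lay at 0.57, 0.68 and 0.87, low-oxygen samples at 1.26, 0.91 and 1.14, and starved samples at 2.0, 1.94 and 1.82. Knockout controls lay at 0.89, 0.84 and 0.39, low-oxygen samples at 1.23, 1.19 and 1.11, and starved samples at 1.68, 2.09 and 2.09. The order was starved over low oxygen over control, with no overlap between the 3 conditions in either genotype. The starvation rise was 1.21 (SE 0.15), 2.32-fold, in wild type and 1.25, 2.37-fold, in knockout (adjusted p 7.88e-05 and 5.34e-05, limma). The low-oxygen rise was smaller, 0.40 (1.32-fold, adjusted p 0.0457) and 0.47 (1.38-fold, adjusted p 0.0200). It did not pass in 11 of 18 alternatives in wild type, including without control 1 (adjusted p 0.142), control 2 (0.108), low-oxygen sample 1 (0.159) or low-oxygen sample 3 (0.101). In knockout it did not pass in 6 of 18, including without control 3 (0.0972), low-oxygen sample 1 (0.0559) or low-oxygen sample 2 (0.0528).

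Dusp2 encodes a nuclear phosphatase found mainly in blood cells and induced on their activation. It fell in starvation. Wild-type values were 2.70, 2.64 and 2.87 in controls, 2.02, 2.61 and 1.66 at low oxygen, and 1.43, 1.44 and 2.05 when starved. Knockout values were 2.54, 2.89 and 3.02 in controls, 2.11, 2.70 and 2.53 at low oxygen, and 2.31, 1.63 and 1.69 when starved. All starved samples were below all controls of either genotype. The second low-oxygen samples of the 2 genotypes, which shared a slide, lay close to the controls. So did knockout low-oxygen sample 3, which lay on another slide. Starvation lowered Dusp2 2.13-fold in wild type, a log2 change of -1.09 (SE 0.25, adjusted p 0.0100, limma), and 1.92-fold in knockout, a change of -0.94 (adjusted p 0.0235).

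The starvation call for Dusp2 was lost in wild type without starved sample 1 (adjusted p 0.0519). In knockout it was lost without control 2 (0.0744), control 3 (0.0872), starved sample 2 (0.0933) or starved sample 3 (0.0881), and with slide as a block (0.0572). At low oxygen its changes of -0.64 and -0.37 did not pass (adjusted p 0.0617 and 0.280); without low-oxygen sample 2 the wild-type fall did (adjusted p 0.0136).

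Dusp5 encodes a nuclear phosphatase that holds and inactivates ERK alone. Its probe was dim, being well above background in 9 of 18 samples. The counts per group were 0 of 3 wild-type controls, 2 of 3 at low oxygen and 1 of 3 starved, and 1, 3 and 2 of 3 in knockout. Wild-type values were -6.64, -6.24 and -6.97 in controls and -5.68, -4.76 and -5.59 at low oxygen, without overlap. No wild-type control was well above background, so control readings below their array's lowest detectable signal were raised to it. On that basis the rise was 2.02-fold (log2 difference without this step 1.27, SE 0.44, adjusted p 0.0336, limma). Only control 3 was raised, and low-oxygen sample 1 was itself not well above background, so 2.02 is not a firm lower limit. Knockout values were -6.54, -6.58 and -8.05 in controls and -5.51, -5.86 and -4.96 at low oxygen, a log2 difference of 1.62 (adjusted p 0.00896); only 1 of 3 controls was well above background, so no fold is given.

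The wild-type Dusp5 call was lost in 8 of 17 alternatives, including without control 1 (adjusted p 0.0701), control 3 (0.115) or low-oxygen sample 2 (0.135); the knockout call was lost in 1. Starved values were -5.77, -5.58 and -6.55 in wild type and -4.93, -6.11 and -6.12 in knockout. Their differences from control, 0.65 and 1.34, did not pass (adjusted p 0.437 and 0.0596). The knockout difference passed with slide as a block (0.0212), the authors' value table (0.0433), the first of repeat arrays alone (0.0469) and a replicate block (0.0469).

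**Figure D2:**
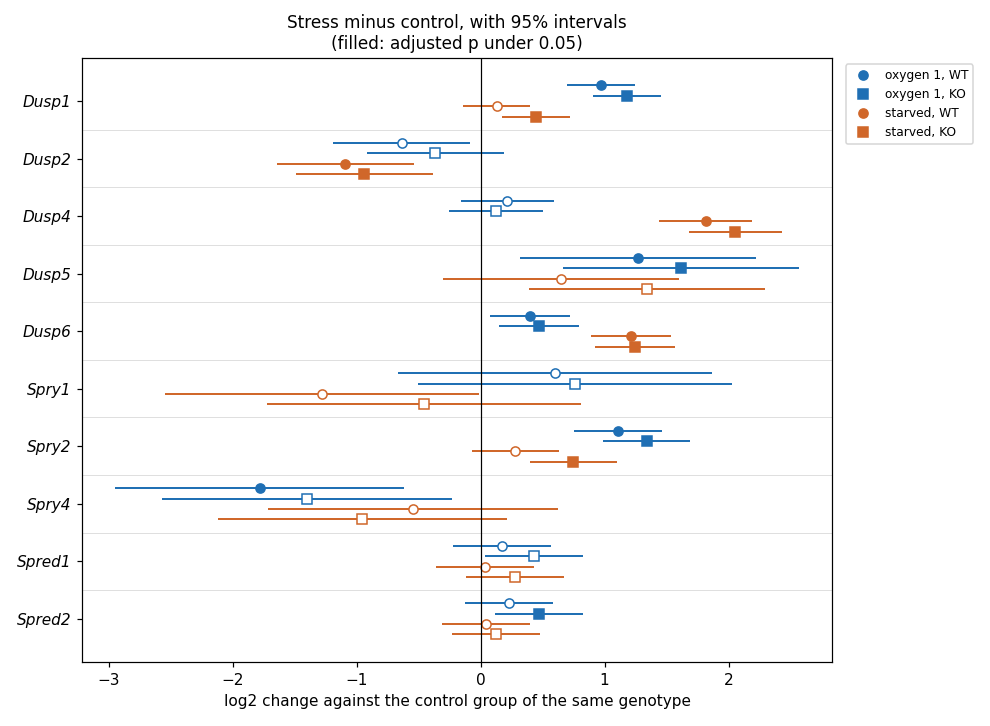
Log2 change of each gene against the control group of the same genotype (x axis) with 95% intervals, for low oxygen (blue) and starvation (orange) in wild type (circles) and knockout (squares), each from 3 against 3 samples; filled symbols have an adjusted p under 0.05. Dusp4 lies at 1.82 and 2.06 in starvation, and Dusp1 and Spry2 lie between 0.97 and 1.34 at low oxygen.

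Spry2 encodes a sprouty, an inhibitor of Ras activation below receptor tyrosine kinases. In wild type it stood at -5.32, -5.68 and -5.69 in controls, -4.25, -4.55 and -4.57 at low oxygen and -5.22, -5.51 and -5.13 when starved. In knockouts it stood at -5.58, -6.18 and -5.91 in controls, -4.40, -4.72 and -4.53 at low oxygen and -5.14, -5.16 and -5.13 when starved. The 6 low-oxygen samples were above the other 12 samples with no overlap; 1 knockout control was not well above background. Low oxygen raised Spry2 by 1.11 (SE 0.16), 2.16-fold, in wild type and by 1.34, 2.53-fold, in knockout (adjusted p 7.05e-05 and 1.06e-05, limma). Starvation gave 0.28 in wild type, which did not pass (adjusted p 0.332), and a rise of 0.75, 1.68-fold, in knockout (adjusted p 0.00553).

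The Spry2 calls were lost under a single alternative, normexp background correction, where the low-oxygen changes were 0.55 and 0.52 (adjusted p 0.285 and 0.323). That setting starts from the median signal and adds a constant to every signal. In low oxygen against starvation it gave -0.19 in wild type, of opposite sign, and 0.25 in knockout. Why the calls were lost was not tested.

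Spry1, a sprouty known for restraining growth factor receptors, was dim. Wild-type values were -5.52, -6.05 and -5.37 in controls, -5.17, -4.83 and -5.13 at low oxygen and -7.21, -7.94 and -5.64 when starved. Knockout values were -6.06, -5.37 and -5.99 in controls, -4.85, -4.76 and -5.53 at low oxygen and -7.02, -4.70 and -7.09 when starved. In each genotype 1 of 3 starved samples was well above background, and that sample stood apart from the other 2. None of the 4 stress comparisons passed, with log2 differences of 0.60 and 0.76 at low oxygen and -1.28 and -0.46 in starvation (adjusted p 0.453, 0.335, 0.199 and 0.709, limma). Without starved sample 3 the wild-type starvation difference was -1.93 with an adjusted p of 0.0371.

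Spry4, another sprouty of the Ras and Raf step, was at the edge of detection. It was well above background in 2 of 3 wild-type controls, at -6.20 and -5.84, in 1 starved wild-type sample at -5.27 and in 1 knockout control at -6.71, the mean of repeat arrays that read -8.33 and -5.09. None of the 6 low-oxygen samples was well above background; they lay between -8.89 and -7.95. The wild-type low-oxygen difference of -1.78 (SE 0.54) passed with an adjusted p of 0.0170 in limma, and no fold is given because the low side has no measured level. It was lost in 5 of 17 alternatives, among them without control 1 (adjusted p 0.0510), control 3 (0.0756) or low-oxygen sample 2 (0.0572). The knockout difference of -1.40 did not pass (adjusted p 0.0525), and was -0.93 with the first of the repeat arrays alone; it passed with quantile scaling (0.0257) and with only its own groups in the fit (0.00821). The starvation differences of -0.55 and -0.95 did not pass (0.631 and 0.307), the latter passing with only its own groups in the fit (0.0404); without starved sample 2 the wild-type starvation fall passed (0.0232).

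Spred1 and Spred2, which bring the Ras inactivator neurofibromin to the membrane, had the smallest spans of group means. Both were well above background in all 18 samples. Spred1 group means ran from 0.05 ± 0.16 in knockout controls to 0.48 ± 0.35 in knockouts at low oxygen (SD, n = 3), and its changes were 0.17 and 0.43 at low oxygen and 0.03 and 0.28 in starvation, none past the threshold (adjusted p 0.479, 0.0722, 0.948 and 0.386, limma). The knockout rise at low oxygen passed without low-oxygen sample 1 (adjusted p 0.0190), with the authors' value table (0.0278), with the first of repeat arrays alone (0.0291) and with slide as a block (0.0431). Spred2 group means ran from -0.93 ± 0.10 in knockout controls to -0.46 ± 0.16 in knockouts at low oxygen. That rise of 0.47, 1.39-fold, passed (adjusted p 0.0304), while the wild-type difference of 0.23 did not (0.295), nor did those in starvation, 0.04 and 0.12 (0.926 and 0.719). The Spred2 call was lost in 5 of 18 alternatives, including without control 2 (0.0813), control 3 (0.0777), low-oxygen sample 1 (0.0826) or low-oxygen sample 3 (0.0959).

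Low oxygen and starvation were then compared directly. Of the 10 members 5 passed in wild type, 3 higher at low oxygen and 2 lower, and 4 in knockout, 2 and 2. Of all genes 38.1% and 37.1% passed, with 19.8% and 19.2% higher and 18.3% and 17.9% lower. The samples did not overlap for 5 and 4 members, beside 46.7% and 50.1% of all genes. Dusp1 was higher at low oxygen than in starvation by 0.84 in wild type and 0.73 in knockout (adjusted p 8.79e-05 and 2.95e-04, limma). Spry2 was higher by 0.83 and 0.59 (adjusted p 9.10e-04 and 0.00923). In the opposite direction, Dusp4 differed by -1.60 and -1.93 (adjusted p 4.89e-06 and 7.81e-07) and Dusp6 by -0.82 and -0.78 (adjusted p 5.48e-04 and 8.17e-04). The nuclear phosphatases Dusp1 and Dusp4 thus took opposite sides, and in all 4 genes the samples of the 2 stresses did not overlap in either genotype.

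Spry1 was higher at low oxygen in wild type by 1.89 (adjusted p 0.0204, limma), which was lost without low-oxygen sample 2, starved sample 1 or starved sample 2, where the differences were 1.78, 1.74 and 1.38; in knockout 1.22 did not pass (0.120), but did without starved sample 2 (2.01, adjusted p 0.00664). Dusp2, Dusp5, Spry4, Spred1 and Spred2 passed in neither genotype, at 0.46 and 0.57, 0.62 and 0.27, -1.24 and -0.45, 0.14 and 0.15, and 0.19 and 0.35. Dusp2 passed in knockout without starved sample 1 (0.79, adjusted p 0.0365), Spry4 in wild type without starved sample 3 (-1.74, 0.0221), with quantile scaling (0.0230) and with the authors' value table (0.0347), and Spred2 in knockout with slide as a block (0.0426).

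**Figure D3:**
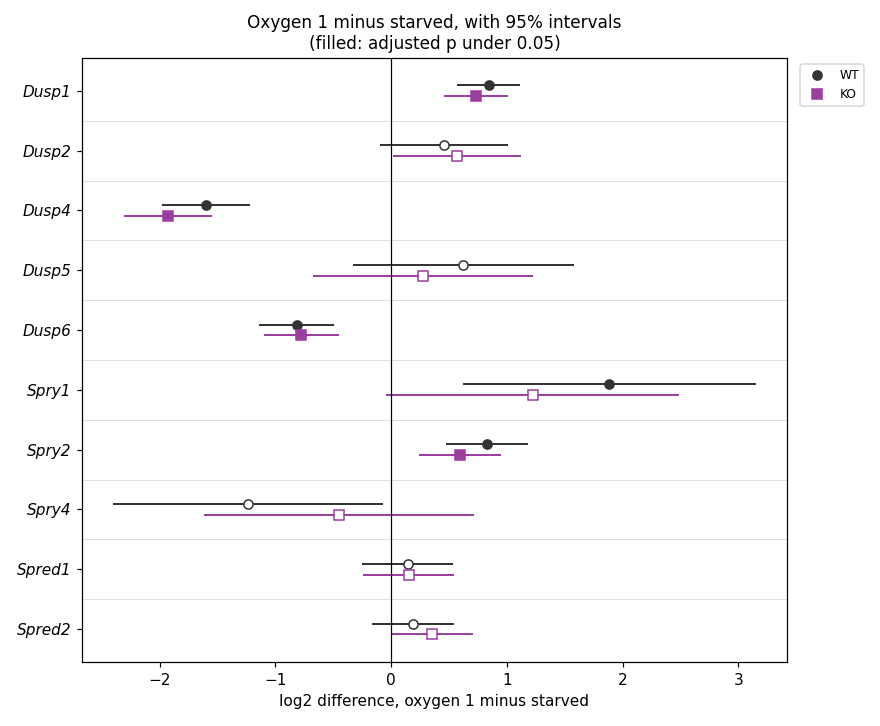
Log2 difference between low-oxygen and starved samples (x axis; oxygen 1 minus starved) with 95% intervals for the 10 genes in wild type (circles) and knockout (squares), 3 against 3 samples each; filled symbols have an adjusted p under 0.05. Dusp1 and Spry2 lie to the right of 0, and Dusp4 and Dusp6 to the left, in both genotypes.

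The arrays lay on 5 slides, and the differences could be read within a slide where a slide held both groups. Within slides the low-oxygen rise of Dusp1 was 1.18 in wild type (1 slide) and 0.99 to 1.37 in knockout (3 slides, which hold 2 low-oxygen samples and 2 controls because 1 of the slides carries repeat arrays of samples on the others), and that of Spry2 was 0.77 and 1.07 to 1.86. The starvation rise of Dusp4 was 1.60 to 1.98 in wild type and 1.95 to 2.23 in knockout, and that of Dusp6 0.95 to 1.43 and 0.92 to 1.69, over 3 slides each. Dusp2 in starvation ranged from -1.26 to -0.81 and from -1.33 to -0.18. Dusp6 at low oxygen was 0.34 in wild type and 0.04 to 0.56 in knockout. These kept the direction of the pooled values. The low-oxygen difference of Dusp2 did not hold on the single wild-type slide, at -0.08, and ran from -0.99 to 0.04 in knockout.

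The loss of PHD3 was tested in each condition and on each response. None of the 10 members passed in controls, at low oxygen or in starvation, nor in the test of whether the response to either stress differed between genotypes (limma); the share of all genes was 0% in each. At an unadjusted p under 0.05, 0 members and 290, 353 and 394 of the 20813 genes passed in the 3 genotype comparisons, and 0 members and 230 and 216 genes in the tests of the 2 responses. Over the 6 members well above background in all samples, knockout minus wild type ran from -0.22 to 0.08 in controls, from -0.31 to 0.35 at low oxygen and from 0.01 to 0.23 in starvation. Dusp1 in controls was the member whose 3 knockout samples all lay below the wild-type samples, with a difference of -0.20; 5.02% of all genes had no overlap there. At low oxygen and in starvation the genotypes overlapped for every member, where 4.4% and 5.21% of all genes had no overlap.

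A missed threshold does not show that the genotypes act alike, and the intervals say how large a difference may be. The difference in response to low oxygen, knockout minus wild type, was 0.21 for Dusp1 (95% interval -0.16 to 0.59) and 0.23 for Spry2 (-0.25 to 0.72). The difference in response to starvation was 0.24 for Dusp4 (-0.28 to 0.76) and 0.03 for Dusp6 (-0.42 to 0.48). For the dim genes it was wider, as for Spry1 in starvation at 0.82 (-0.96 to 2.60). Spry2 and Dusp1 passed in starved knockouts and not in starved wild type, but the differences between the genotypes' responses, 0.47 (-0.02 to 0.95) and 0.32 (-0.05 to 0.69), did not pass.

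**Figure D4:**
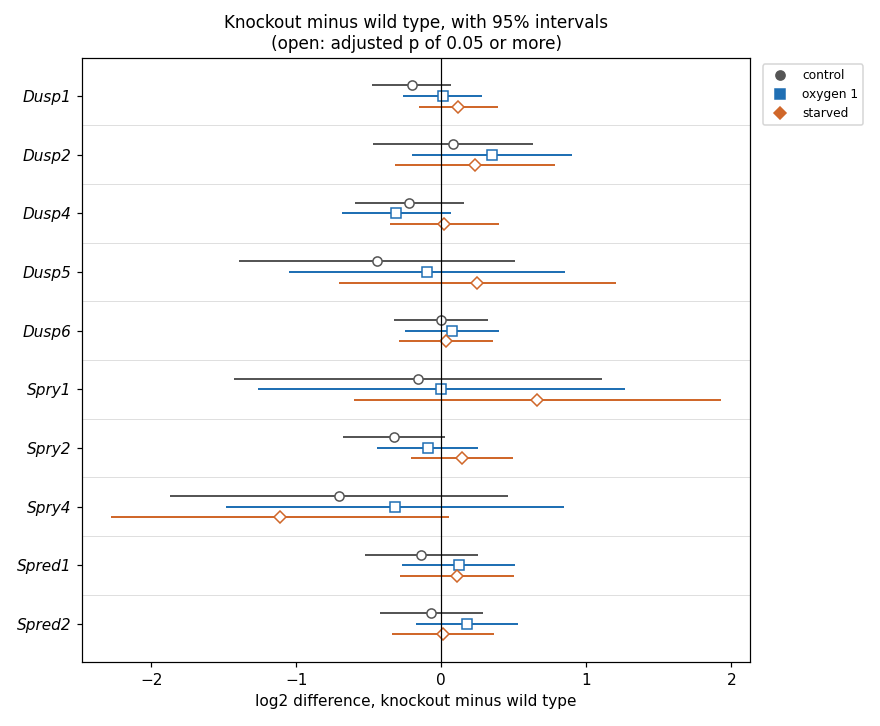
Log2 difference between knockout and wild type (x axis; knockout minus wild type) with 95% intervals for the 10 genes in controls (grey circles), at low oxygen (blue squares) and in starvation (orange diamonds), 3 against 3 samples each. All symbols are open because no adjusted p was under 0.05, and the widest intervals belong to the dim genes Spry1, Spry4 and Dusp5.

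Around the feedback genes, the lists of the pathway were counted whole. Of 34 genes from the M-CSF receptor to ERK, 10 rose and 4 fell at low oxygen in either genotype, while 2 rose and 2 fell in starved wild type and 3 and 3 in starved knockout. As above, 38.6% and 39.7% of all genes passed at low oxygen and 12.5% and 13.5% in starvation, and the counts of this and the next lists stand beside those shares.  Map2k1, which encodes the ERK kinase MEK1, rose at low oxygen by 1.38 in wild type and 1.34 in knockout (log2, SE 0.11 each). Csf1r, the M-CSF receptor, rose by 1.06 and 0.98. Rasgrp1, an activator of Ras, fell by 1.60 and 1.63 at low oxygen, while its relative Rasgrp3 rose by 1.52 and 2.22 and also rose by 1.75 and 1.93 in starvation. The Rasgrp3 calls were lost with normexp in low oxygen (0.62 and 0.80) and in starved knockout (0.60), and in wild type at low oxygen with slide as a block (adjusted p 0.0554).

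Of 24 transcripts listed as ERK-dependent 21 were tested. The list includes the transcription factors Elk1, Elk3, Elk4 and Srf. Whether its transcripts depend on ERK in these cells was not tested. At low oxygen 8 rose and 5 fell in wild type and 7 and 4 in knockout; in starvation 4 rose and 2 fell in wild type and 5 and 4 in knockout. Ier3, an early-response survival gene, rose at low oxygen by 3.07 and 3.15 in wild type and knockout. Egr1, the early growth response factor, fell there by 1.98 and 1.90. Egr1 also fell past the threshold in starvation in both genotypes. Among other settings, that call was lost without wild-type control 2 (-1.09, adjusted p 0.0641, limma) and without knockout control 2 (-0.95, adjusted p 0.105). Fos, a subunit of AP-1, fell by 0.56 and 0.37 at low oxygen and rose by 0.88 and 0.92 in starvation; the knockout fall was lost in 5 of 18 alternatives, including without low-oxygen sample 1 (adjusted p 0.0653). Egr2 rose by 0.91 and 1.03 in starvation. The list thus held rises and falls under each stress.

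The other dual-specificity phosphatases numbered 16, of which 14 were tested. At low oxygen 5 rose and 1 fell in wild type and 4 and 2 in knockout; in starvation 5 and 4 rose and 0 fell (limma; 1 was lower in each genotype at an unadjusted p under 0.05). Dusp14, a small phosphatase without an ERK docking domain, rose at low oxygen by 2.40 and 2.31 (SE 0.22) and in starvation by 1.15 and 1.18. Its starved knockout call was lost with normexp (0.71, adjusted p 0.0638, limma). Dusp10, which prefers JNK and p38, rose at low oxygen by 1.31 and 1.61. Dusp7, a cytoplasmic relative of Dusp6, rose by 0.58 and 0.54 in starvation. It fell past the threshold at low oxygen in both genotypes. Among other settings, that call was lost without wild-type control 2 (-0.23, adjusted p 0.122, limma) and without knockout control 1 (-0.27, adjusted p 0.0768). Among 22 other negative regulators tested, 6 rose and 4 fell at low oxygen in wild type, 7 and 4 in knockout, 3 and 1 in starved wild type and 3 and 0 in starved knockout (1 was lower at an unadjusted p under 0.05). Rgs2, a brake on G protein signalling, rose by 2.29 and 2.21 in starvation, and Rgs1 by 1.92 and 1.99. Errfi1, which inhibits the EGF receptor, rose by 0.85 and 0.88 at low oxygen, where the adaptor Dok1 fell by 0.66 and 0.67. In starved wild type Errfi1 was the 1 gene of the list that fell, a call lost with normexp (-0.55, adjusted p 0.0720, limma).

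Of 17 kinases of the JNK and p38 pathways, 4 rose and 5 fell at low oxygen in wild type, 4 and 8 in knockout, and 0 rose and 3 fell in starvation in either genotype (limma; 0 were higher at an unadjusted p under 0.05 too). Map2k6, a p38 kinase, rose by 1.52 and 1.48 at low oxygen, and Map3k1 by 1.23 and 1.29. Mapk11, which encodes p38 beta, fell there by 1.31 and 0.99. Its knockout call was lost with normexp (-0.70, adjusted p 0.0925, limma). Map3k8, the kinase Tpl2 that feeds ERK in activated macrophages, fell by 0.53 and 0.49 in starvation. Except in the alternatives named, all changes given for the pathway lists had an adjusted p under 0.05 in limma.

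**Figure D5:**
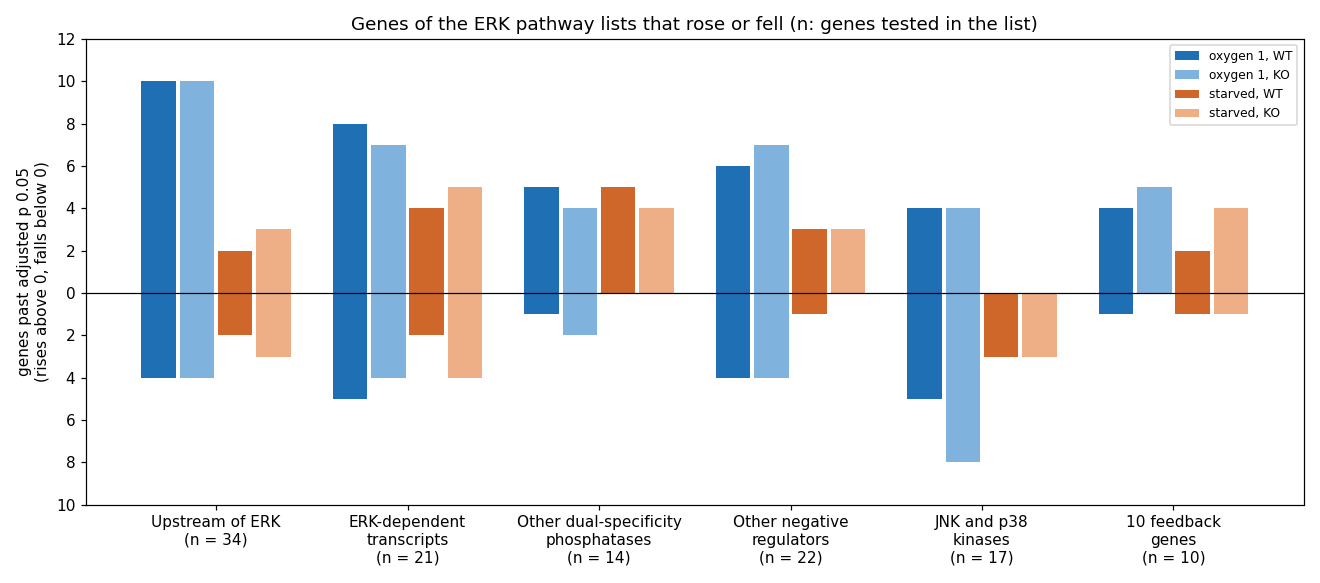
Number of genes with an adjusted p under 0.05 (y axis; rises above 0, falls below 0) in 5 pathway lists and among the 10 feedback genes (x axis, with the number tested), for low oxygen (blue) and starvation (orange) in wild type (dark) and knockout (light). In starvation the other dual-specificity phosphatases show 5 and 4 rises and no fall, and in the low-oxygen comparisons each list shows both directions except the feedback genes in knockout.

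Some markers of other cells rose or fell under the stresses, and their part in the results above was not tested. Their counts stand beside the shares of all genes that passed. These were 38.6% and 39.7% at low oxygen and 12.5% and 13.5% in starvation, in wild type and knockout. At low oxygen in wild type the stromal and lymphocyte counts were near that share. Of 11 neutrophil markers tested, 2 rose and 5 fell at low oxygen in wild type, 2 and 4 in knockout, and 1 rose and 5 fell in starvation in either genotype; Ly6g and Retnlg were not measured above background. The summed neutrophil signal, in multiples of the array's 75th percentile, was 60.9 to 75.2 in wild-type controls, 50.8 to 52.5 at low oxygen and 49.3 to 70.3 starved, and 49.4 to 68.7, 51.5 to 65.1 and 54.7 to 63.6 in knockout. The 3 erythroid and megakaryocyte markers tested had a sum of 5.85 to 6.46 in wild-type controls, 16.0 to 33.4 at low oxygen and 12.3 to 15.4 starved, with Pf4 up by 1.96 at low oxygen, while Hbb-b1, Klf1 and Itga2b were not above background. In knockout that sum was 6.44 to 7.29, 15.6 to 32.8 and 10.3 to 13.3. At an unadjusted p under 0.05 (limma), 1 of these 3 markers was higher and 0 lower at low oxygen in wild type. At low oxygen in knockout, and in starvation in either genotype, 1 was higher and 1 lower. Of 9 stromal and endothelial markers tested 3 rose and 1 fell at low oxygen in wild type, and 3 fell in starved wild type and 2 in starved knockout. Their sum was 5.75 to 6.75 in wild-type controls, 5.20 to 6.12 at low oxygen and 3.37 to 6.03 starved, and 4.76 to 7.84, 5.11 to 6.04 and 4.81 to 6.39 in knockout. The 2 dendritic cell markers tested summed to 50.1 to 84.7 in wild-type controls, 75.9 to 90.8 at low oxygen and 64.7 to 71.5 starved. In knockout the sums were 59.4 to 73.3, 69.1 to 90.3 and 63.0 to 70.6. At low oxygen 1 of them rose in wild type and 0 in knockout, and neither passed in starvation. Zbtb46, Cd209a, Xcr1 and Clec9a were not among the genes tested. Of 2 mast cell and basophil markers tested 1 fell at low oxygen in wild type. Of 5 lymphocyte markers tested 2 fell in each of the 4 stress comparisons; they summed to 1.49 to 2.36 over all samples, with Cd3g, Cd8a, Cd79a, Ncr1 and Gzma not above background. Of 10 macrophage markers 3 rose and 2 fell at low oxygen, and 4 rose and 0 fell in starvation, in either genotype (limma; 0 were lower at an unadjusted p under 0.05 too).

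The genes whose profile over the 18 samples was most like a member's were found by the root mean square difference of centred log2 values among 11393 or 11394 genes well above background in every sample. This is a description, with no test. Nearest to Dusp1 were Tigd2 (0.110), H2bc4 (0.110) and C5ar2 (0.113). Nearest to Dusp4 were Havcr2 (0.211), Lhfpl2 (0.242) and Gpnmb (0.242). Nearest to Dusp6 were Osbpl10 (0.160), Hgf (0.176) and Tmem119 (0.178), and to Spry2 Ptpro (0.187), Atg13 (0.188) and Fam214a (0.195). Dusp2 lay closest to Camkk1 (0.244), Cd40 (0.277) and Ccdc34 (0.280). For the dim members the smallest differences were larger, the nearest genes being Traf1 for Dusp5 (0.314), Csprs for Spry1 (0.586) and Fscn1 for Spry4 (0.649). Spred1 and Spred2, whose group means spanned under 1 log2 unit, were not searched.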

How the data were processed

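The authors deposited 1 Agilent scanner file per array, 20 arrays for 18 samples, made with Feature Extraction 10.7.3.1 on a mouse design annotated on mm9, per the file headers, from 200 ng RNA per array, per the labels. Background-subtracted intensity (processed signal, deposited by the authors) was divided by the array's 75th percentile and log2 transformed. Spots with non-uniformity or population outlier flags were left out, and repeat arrays (2 samples had a second) were averaged. The authors' value table of log2 values served as an alternative. A probe was tested if well above background in at least 3 samples; the brightest probe stood for a gene, and 26055 of 39429 probes had a RefSeq symbol. The 6 group means were fitted in limma 3.58.1 (R 4.3.3) over all 18 samples, with Benjamini-Hochberg adjustment over 20813 genes and a threshold of 0.05; the fit was tested on simulated data. On a dim side, readings under the lowest signal among probes well above background on the same array were raised to that signal.

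The members and lists were chosen with earlier results of these data known. From each list, genes past the threshold were named, favouring the 3 smallest adjusted p per comparison. Likeness took 3 genes per member. Alternatives covered scaling, normexp background correction with an offset of 50 (on the median signal, since the mean signal planned is not a column of these files), filters, flags, slide, replicate number, repeat arrays, probe choice, samples in the fit and leaving samples out. The fit with slide as a block used the first of repeat arrays alone. Deviations of same-numbered samples correlated at 0.15 to 0.18 in low oxygen against starvation in knockout and at 0.06 to 0.25 in starvation in knockout. Starvation and low oxygen in wild type gave 0.002 to 0.23 and -0.07 to 0.29. Over all comparisons the lowest value was -0.33. Same-numbered control and starved samples of a genotype shared a slide, so number and slide cannot be told apart there. These values come from the data, and the labels give no pairing. For all genes, normexp moved the median starvation change in wild type from 0.02 to 0.18. Arrays limit precision by their number.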

Additional observations from a re-analysis of the deposited data

How the results depend on the processing

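Of 2056 values of the 10 members over the alternatives, 1972 kept their direction and side of the threshold, 60 lost a call, 22 gained one and 2 reversed. The low-oxygen rise of Dusp1, the starvation rises of Dusp4 and Dusp6, and the low-oxygen against starvation differences of Dusp1, Dusp4 and Dusp6 passed in all 18 alternatives in both genotypes. Both reversals came under normexp in low oxygen against starvation in wild type: Spry1 was -0.18 and Spry2 -0.19, neither past the threshold. Il17rd, of the pathway lists, reversed there too, at -0.20. The cause was not tested. Of 2886 values of the pathway genes, 2753 were alike in call, 112 lost one and 20 gained one. The count of members called at low oxygen in wild type, 5, became 3 with quantile scaling, 1 with normexp, 3 without a filter, 3 with the filter of all 18 samples and 2 with slide as a block; leaving out 1 sample gave 2 to 4. In knockout it was 2 with normexp and 3 with the filter of all 18; leaving out 1 sample gave 3 to 5. In starved knockout, 5 became 3 with normexp and 3 without the 3 samples that stood apart in an earlier analysis; leaving out 1 sample gave 3 to 4. In low oxygen against starvation in wild type, 5 became 3 with normexp and 3 with the filter of all 18. The filter of all 18 leaves Dusp5, Spry1, Spry2 and Spry4 untested by construction. With a replicate block the counts were 4 and 5 at low oxygen, 3 and 6 in starvation, and 5 and 4 between the stresses (wild type, knockout); Dusp6 at low oxygen in wild type was lost (adjusted p 0.0626) and Dusp5 in starved knockout gained (0.0469). Over all genes, normexp called 3920 in place of 8039 and 4206 in place of 8268 at low oxygen, 1118 in place of 2602 and 912 in place of 2812 in starvation, and 3991 in place of 7934 and 3749 in place of 7719 between the stresses. Leaving out wild-type starved sample 1 called 1695 in place of 2602, and leaving out knockout starved sample 3 called 2 in place of 0 in starved genotypes. Probes near background, as for Dusp5, Spry1 and Spry4, limit what can be seen. Spry2 was well above background in 17 of 18 samples, but its control means were low, -5.56 and -5.89, and its calls were lost with normexp.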
